A study of Mus musculus with 167 samples.

Results

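Fbn2, Lrrc17, Moxd1, Adamts16, Angptl1, Sbspon, Pde11a, Cacna1g and Kcna5 were described here as 9 genes of a table of 36118. They were chosen because tumours of short-lived mice held more of their transcripts than tumours of long-lived mice of the same strain, in the 13 strains that had mice of both kinds. That difference is therefore given as a description, with no test. Tests were kept mainly for what the choice did not use, which is strains of a single survival class, the level of collagen, and differences between strains and between tumours of one mouse. A test of whether the survival difference varied with strain reused mice of these 13 strains. The test between strains held no term for survival class.

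The data are RNA-seq counts from 167 tumours of 119 mice of 35 strains. Every mouse was the progeny of a male of a Collaborative Cross line, an inbred mosaic of several founder strains, and a MexTAg female, in which the mesothelin promoter drives the large T oncogene of SV40 in mesothelial cells. All mice of every group had 2 injections of 3 mg of crocidolite asbestos into the peritoneum, and the labels give no treatment beyond that and no age. The labels place 83 mice above and 36 mice below median survival, so the groups differ in survival and, apart from the 13 strains with both classes (35 mice above, 22 below), also in strain. Of the other 22 strains, 16 held mice above the median only (48 mice) and 6 held mice below it only (14 mice).

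A tumour library held 11138491 to 35399287 estimated counts, with a median of 22539831. In 21 libraries a list of markers of another tissue, such as liver, pancreas or skeletal muscle, took over 1% of the counts. By 300 genes that vary most between strains, 5 libraries were nearer to another strain than to the one on their label, by over 0.1 in correlation: tumour 2 of ROGAN-C3, LOX-D1, LAT-F5 and LAT-D3, and tumour 1 of MEE-A3. Where leaving these libraries out moved a result across its threshold or turned a direction, both values are given below. Labelled as mesothelioma, the tumours expressed most mesothelial markers, with a median summed level over 13 markers of 181 to 613 CPM (counts scaled by depth, with TMM factors) in the 4 groups of mice, while the marker Calb2 stood below the level of 3 counts in each group's median. These are whole tumours, so fewer cells of a type and less RNA per cell cannot be told apart.

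Most of these genes encode parts of, or enzymes for, the space between cells. Tumour stroma is the mixture of fibroblasts, vessels, immune cells and extracellular matrix around cancer cells. Fibrillar collagens, made mainly by fibroblasts, are its bulk, and microfibrils built from fibrillins carry elastin and bind growth factors of the TGF-beta family. In mesothelioma the malignant cells themselves can take on a spindle shape and make matrix, so matrix transcripts of a whole tumour need not come from fibroblasts.

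Of the 9, 5 encode secreted proteins. Fbn2 (ENSMUSG00000024598, GRCm38 chr18:58008623-58210487) encodes fibrillin-2, a microfibril protein used mainly during development. Adamts16 (ENSMUSG00000049538, chr13:70727802-70841811) encodes a secreted metalloproteinase with thrombospondin repeats. Sbspon (ENSMUSG00000032719, chr1:15853862-15892722) encodes a secreted protein with somatomedin B and thrombospondin domains. Lrrc17 (ENSMUSG00000039883, chr5:21543559-21575904) encodes a secreted leucine-rich repeat protein, and Angptl1 (ENSMUSG00000033544, chr1:156838562-156861078) an angiopoietin-like protein. The other 4 act in cells or at their surface. Moxd1 (ENSMUSG00000020000, chr10:24223517-24302790) encodes a relative of dopamine beta-hydroxylase that resides in the endoplasmic reticulum. Pde11a (ENSMUSG00000075270, chr2:75989141-76338774) encodes a phosphodiesterase that degrades both cAMP and cGMP. Cacna1g (ENSMUSG00000020866, chr11:94408391-94474198) encodes the pore of a T-type calcium channel, and Kcna5 (ENSMUSG00000045534, chr6:126532551-126535412) a voltage-gated potassium channel subunit known from vascular smooth muscle and heart.

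Per kilobase of exon, Lrrc17 was the most abundant, with a median over the 119 mice of 9.75 CPM per kb. Moxd1 followed at 1.38, Cacna1g at 1.03 and Fbn2 at 0.826 CPM per kb. The other medians were 0.478 for Angptl1, 0.331 for Adamts16, 0.305 for Kcna5, 0.119 for Sbspon and 0.0987 CPM per kb for Pde11a. Low levels limit 3 of them: Sbspon had at most 3 counts in 22 mice, Pde11a in 19 and Kcna5 in 17 of the 119. A count of 3 makes 0.269 CPM in the shallowest library.

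In the collagen fit below, Lrrc17 and Moxd1 rose, while Kcna5 narrowly missed the threshold and passed it under some alternatives. The promoters of these 3 members are shown. Each is the 250 bases before the RefSeq start of transcription, on the gene's strand, in GRCm38.p6, at chr5:21543277-21543526 for Lrrc17, chr10:24223267-24223516 for Moxd1 and chr6:126535556-126535805 for Kcna5. Capitals mark matches to 6 motifs searched on both strands: AP-1 (TGANTCA), TEAD (CATTCC), RUNX (TGTGGT), an E-box (CAGCTG), CRE (TGACGT) and a TATA box (TATAAA).
Lrrc17: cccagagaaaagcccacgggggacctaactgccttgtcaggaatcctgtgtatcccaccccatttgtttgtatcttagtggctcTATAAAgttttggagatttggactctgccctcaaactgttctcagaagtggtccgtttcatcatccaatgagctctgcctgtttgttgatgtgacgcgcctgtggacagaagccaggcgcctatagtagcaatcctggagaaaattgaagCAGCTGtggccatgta
Moxd1: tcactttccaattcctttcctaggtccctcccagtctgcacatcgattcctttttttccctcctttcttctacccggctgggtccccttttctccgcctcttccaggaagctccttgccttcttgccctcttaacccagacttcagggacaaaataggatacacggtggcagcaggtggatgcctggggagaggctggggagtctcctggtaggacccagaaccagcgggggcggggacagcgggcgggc
Kcna5: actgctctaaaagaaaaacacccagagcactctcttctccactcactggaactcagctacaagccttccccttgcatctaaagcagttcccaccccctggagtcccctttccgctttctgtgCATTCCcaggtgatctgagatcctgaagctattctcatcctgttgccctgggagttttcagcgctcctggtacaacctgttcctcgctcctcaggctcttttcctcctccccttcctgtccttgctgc
Lrrc17 held an E-box that begins 16 bases before the start and a TATA box that begins 166 bases before it. Kcna5 held a TEAD match that begins 128 bases before the start, and Moxd1 held no match to these letters in this window. Of 32851 promoters in the RefSeq table, 13% held that E-box, 12.4% the TATA box and 12.6% the TEAD letters. The table has 5 members, and among these the E-box was found in 2, while AP-1 and RUNX matches, held by 6.75% and 14% of all promoters, were found in none of the 5. The GC content of the windows was 49.2% for Lrrc17, 58.4% for Moxd1 and 53.2% for Kcna5, beside a median of 52.4% over the table.

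Within the 13 strains with both classes, the summed tumour counts of each mouse were compared as below minus above median survival, with strain as a covariate. This is the contrast the genes were chosen from. They stood at ranks 2 to 56 among the 16567 genes fitted, ordered by p. At the end of that range Paqr8, ahead of Adamts16 and no member, differed by 1.01 and Usp22, behind it, by 0.48 on the log2 scale. No gene passed an adjusted p of 0.05 in edgeR (0 of 16567, percent called 0, 1763 at an unadjusted p under 0.05), and DESeq2 called 61. Over all genes 49.7% had a positive difference, and 6.34% were higher below with an unadjusted p under 0.05.

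Among the matrix and secreted proteins, Fbn2 stood at 0.639 to 91.2 CPM (median 6.17) in the 35 mice above and 0.104 to 529.6 CPM (median 61.1) in the 22 mice below. The ranges overlapped, and the highest value below, in GIT-G2, lay above every mouse above the median. The fitted difference of Fbn2 was 2.25 ± 0.63 (log2, SE). Its mean was higher below in 11 of 13 strains, and in 7 strains every mouse below exceeded every mouse above. In LAX the 4 mice above held 4.37 to 18.2 CPM of Fbn2 and the 2 below 53.9 and 115.4 CPM. In CC040 the order was turned, with 0.639 to 2.06 CPM in 3 mice above and 0.104 CPM in the mouse below. LAT was turned as well by its means (-3.35), and without the libraries nearer to another strain it stood at -2.08.

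Lrrc17 ranged from 3.27 to 368 CPM (median 15.7) above and from 2.50 to 666 CPM (median 75.95) below, again with overlap. Its fitted difference was 1.84 ± 0.48 and its mean was higher below in 12 of 13 strains. The exception was CC053, where the 4 mice above held 3.32 to 15.1 CPM of Lrrc17 and the 2 below 2.50 and 2.91 CPM. In LAX the classes were far apart, at 6.73 to 7.15 CPM above and 64.2 and 76.7 CPM below, so the 4 long-lived mice there differed by little among themselves. Lrrc17 in MEE turned from 0.23 to -0.23 without the library nearer to another strain.

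Adamts16 ranged from 0.142 to 75.9 CPM (median 1.51) above and from 0.156 to 96.8 CPM (median 5.52) below. The fitted difference was 2.15 ± 0.63, and the mean was higher below in 10 of 13 strains. A few mice carried much of the total: GIT-K1 held 44.4% of the summed CPM of Adamts16 above, and LAX-F2 27.4% below. Both mice have libraries with over 1% of skeletal muscle transcripts. Without all libraries over 1% of any other tissue, muscle or not, the difference of Adamts16 was 1.37. No fit left out the skeletal muscle libraries alone.

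Angptl1 ranged from 0.172 to 45.2 CPM (median 0.821) above and from 0.173 to 52.5 CPM (median 2.62) below. The fitted difference was 1.76 ± 0.50, with 10 of 13 strains higher below. Its highest mice in each class were again GIT-K1 and LAX-F2. Sbspon had the smallest difference and the smallest error, 1.12 ± 0.27, with 0 to 0.954 CPM (median 0.216) above, 0.0521 to 2.49 CPM (median 0.560) below and 11 of 13 strains higher below. With 3 counts making up to 0.269 CPM, much of the Sbspon range above lies near the limit of detection.

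Of the enzymes, Moxd1 ranged from 0.142 to 57.1 CPM (median 2.46) above and from 0.0521 to 359 CPM (median 16.9) below. The fitted difference was 2.44 ± 0.61, with 10 of 13 strains higher below and 8 in which every mouse below exceeded every mouse above. GIT, where all 4 mice held 53.04 to 143 CPM of Moxd1, was high in both classes. Pde11a ranged from 0 to 14.8 CPM (median 0.328) above and from 0.0431 to 94.3 CPM (median 1.08) below, a fitted difference of 2.30 ± 0.66 with 10 of 13 strains higher below. One mouse, VUX2-G1, held 58.2% of the summed Pde11a CPM of the mice below.

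Both channel genes had a lower median in mice above the median survival. Cacna1g ranged from 0.776 to 50.8 CPM (median 3.96) above and from 0.946 to 178 CPM (median 14.8) below, a difference of 1.73 ± 0.47 with 12 of 13 strains higher below. Only CC053 went the other way for Cacna1g, by -0.24. Kcna5 ranged from 0.0550 to 3.58 CPM (median 0.434) above and from 0.132 to 5.82 CPM (median 1.18) below, a difference of 1.59 ± 0.40 with 11 of 13 strains higher below. Kcna5 in MEE turned from 0.41 to -0.05 without the library nearer to another strain.

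**Figure D1:**
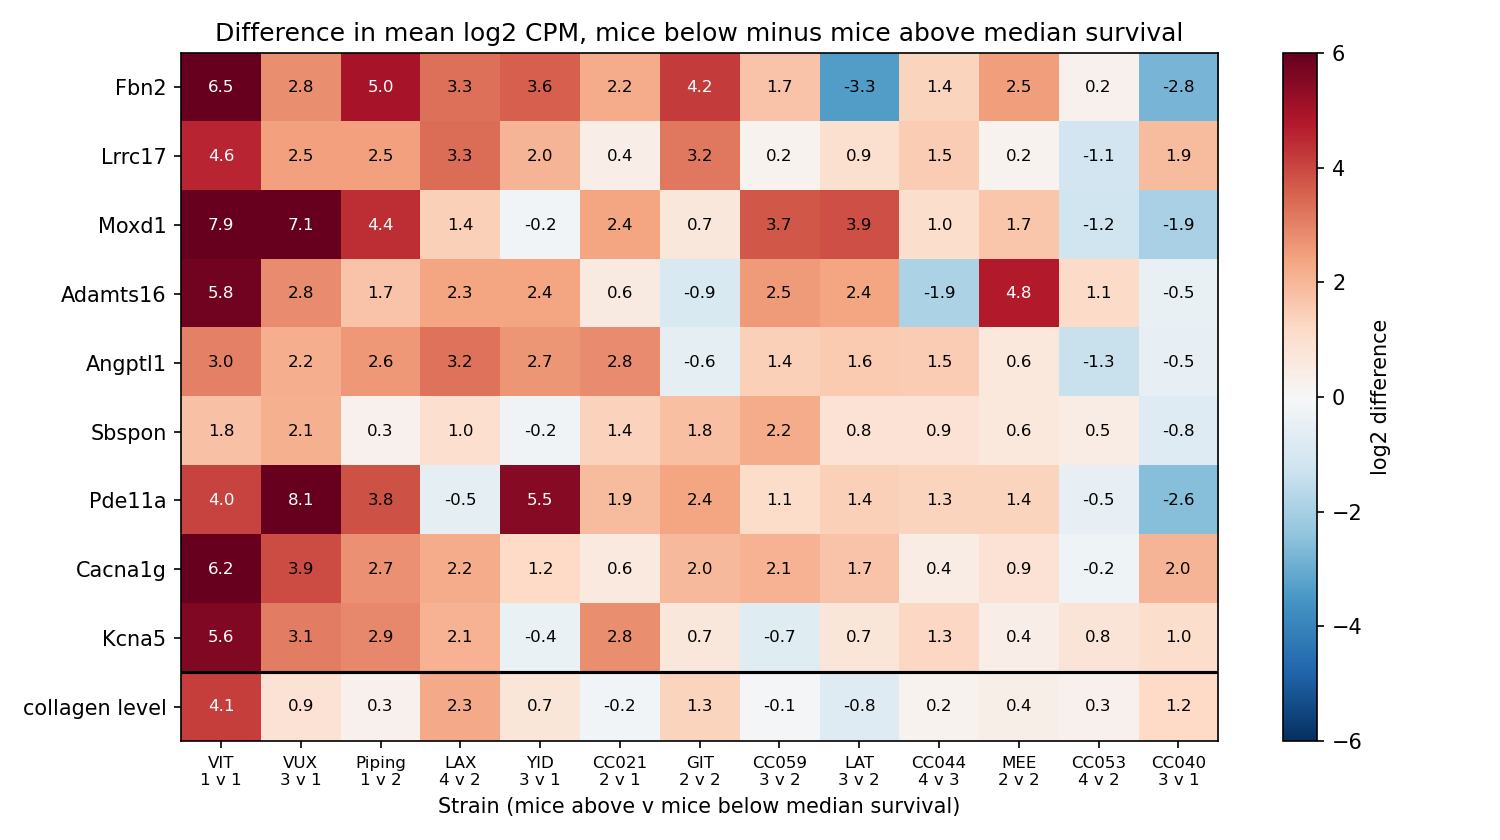
Difference in mean log2 CPM (mice below minus mice above median survival) of each gene, in rows, within each of the 13 strains, in columns with their numbers of mice, and of the collagen level in the bottom row; colours stop at 6 in either direction. Red fills 97 of the 117 cells of the 9 genes, and the blue cells gather in CC040 and CC053 at the right.

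Strain by strain, 97 of 117 pairs of gene and strain were higher below, 60 of them with no overlap between the classes, 52 pairs overlapped and 5 had every mouse above higher. Over all genes fitted, 8.69% were higher below in at least 10 of 13 strains, the count that every member reached, 2.97% in at least 11 and 0.61% in at least 12, the count of Lrrc17 and Cacna1g. In at least 6 strains, the lowest count among the members, every mouse below exceeded every mouse above for 3.74% of all genes. These shares stand beside the counts as background, since agreement between strains goes with the choice of the genes. In 5 strains (CC021, MEE, Piping, VIT, VUX) all 9 members were higher below. VIT, with 1 mouse in each class, had the largest median difference over the members, 5.56, and held the largest difference of 6 of them (Fbn2, Lrrc17, Moxd1, Adamts16, Cacna1g and Kcna5). CC040 had 3 members higher below and CC053 had 4. In 6 of the 13 strains a class consists of 1 mouse, so that the classes part easily there. In VIT, with 1 mouse in each class, no overlap was possible, and all 9 of its pairs are among the 60. Without the libraries nearer to another strain, 95 of 117 pairs were higher below.

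**Figure D2:**
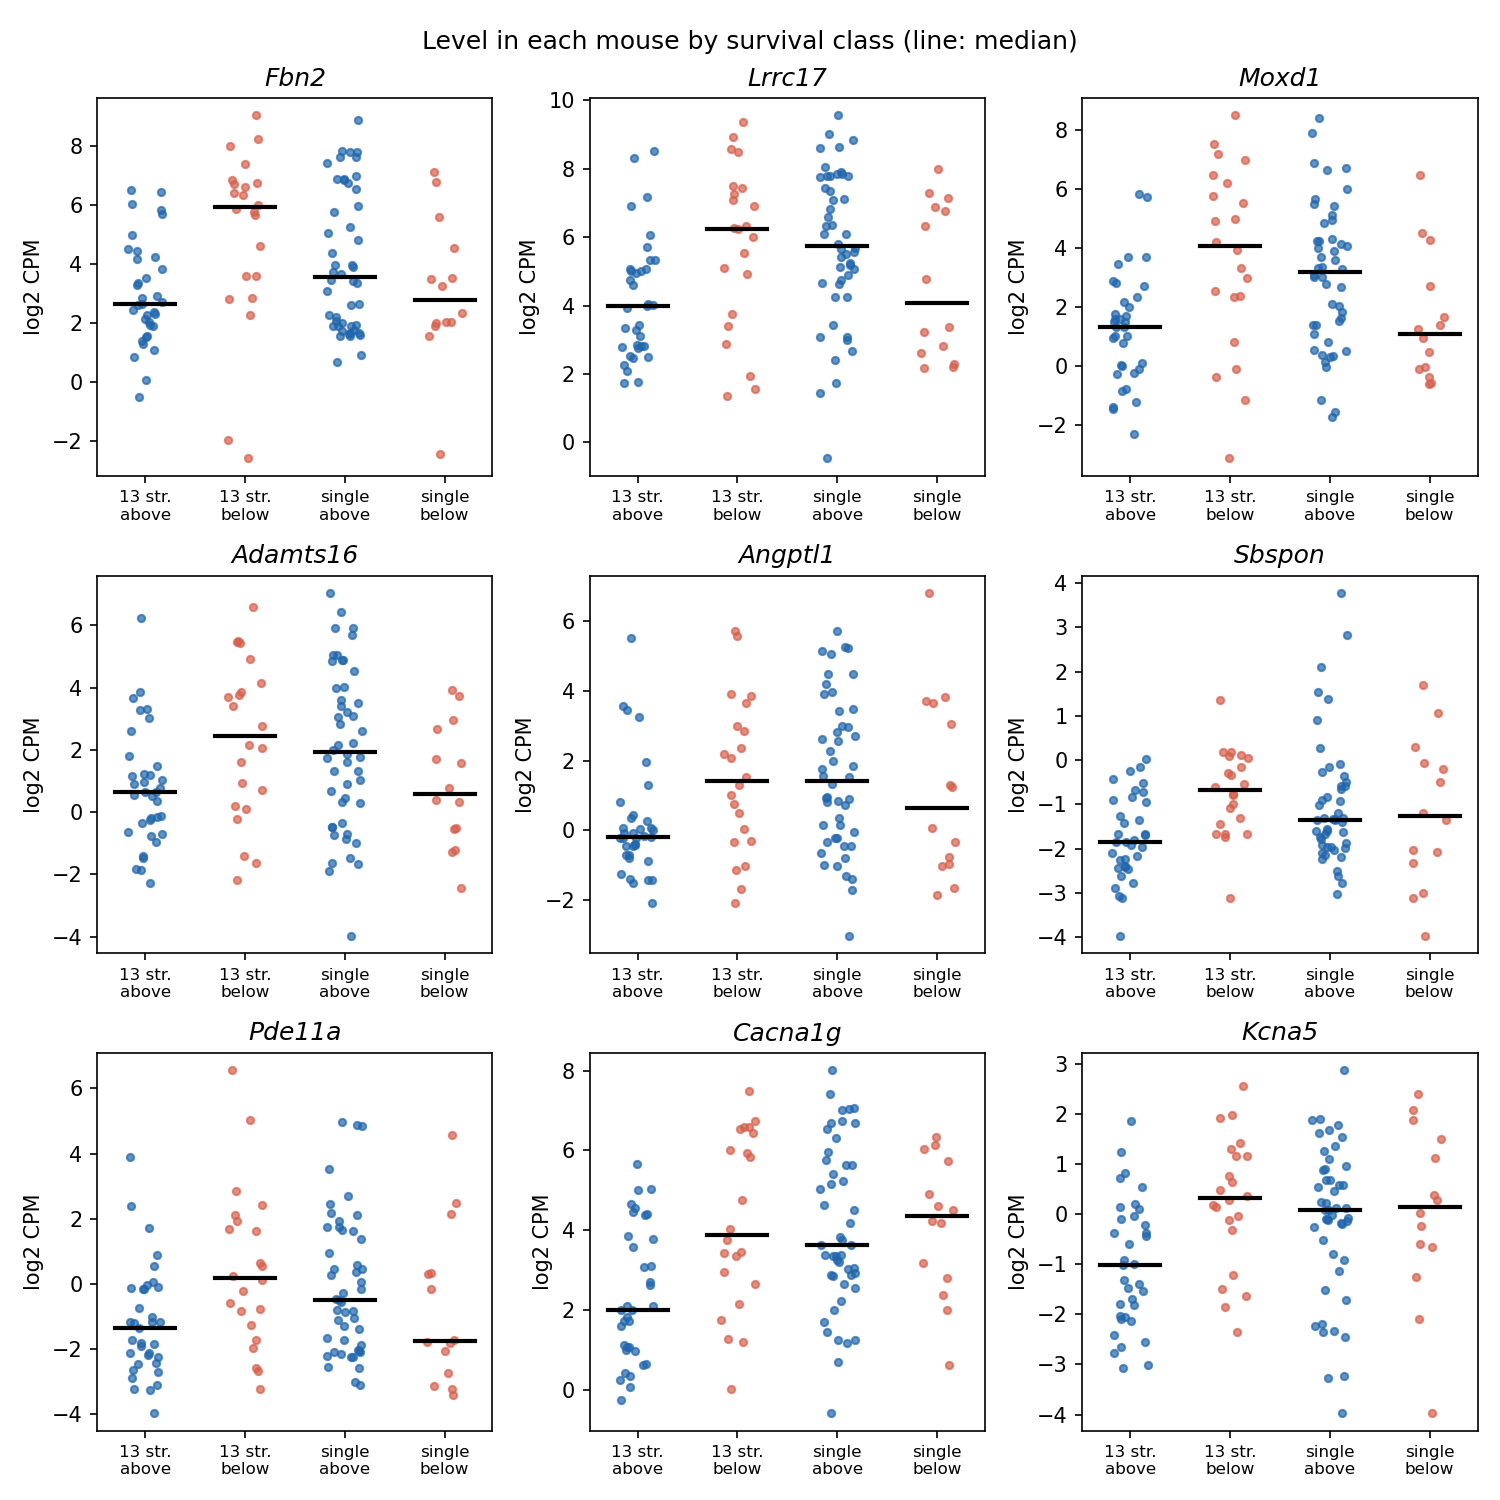
Level of each gene (log2 CPM with a prior count of 2) in each mouse, blue above and red below median survival, in the 13 strains with both classes (35 and 22 mice) and in the single-class strains (48 and 14 mice), with the median as a line. In the 13 strains every median is higher below, whereas in the single-class strains only the medians of Sbspon, Cacna1g and Kcna5 are.

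Some other features of the tumours moved with class in these strains. The collagen level, defined as the mean log2 CPM of Col1a1, Col1a2 and Col3a1, was higher below in 10 of 13 strains, with a median difference of 0.35 and a range over mice of 8.34 to 14.87 above and 8.25 to 14.11 below. All 13 strains had a higher mean of the 17 microfibril and elastic fibre genes below, by a median of 0.45. The 12 endothelial markers were higher below in 11 strains, with summed levels of 54.6 to 1192 CPM above and 131 to 1863 CPM below. The 12 smooth muscle and pericyte markers were also higher below in 11 strains, with summed levels of 79.8 to 2427 CPM above and 276 to 2209 CPM below. The 13 mesothelial markers went the other way by the largest median of these lists, -1.13, and were higher below in 4 strains, with summed levels of 59.4 to 6435 CPM (median 395) above and 26.6 to 4494 CPM (median 181) below. The 11 T cell markers were higher below in 1 strain, with 2.98 to 1290 CPM above and 8.27 to 809 CPM below. Fibroblast markers, 15 in number, were higher below in 9 strains, by a median of 0.46. The 12 cell cycle markers were higher below in 6 strains and the 10 macrophage markers in 5. Ddx3y, a Y-linked gene, stood at or under 1 log2 CPM in 2 of 35 mice above and 6 of 22 below. The part of these lists in the members' differences was not tested. For collagen, the differences with its level as a covariate are given below as a description. With the Ddx3y division as a covariate the members' differences were 1.04 for Sbspon to 2.27 for Moxd1.

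With the collagen level as a covariate beside strain, all 9 differences kept their sign, and the change was not tested. Lrrc17 went from 1.84 to 1.04 ± 0.34, Cacna1g from 1.73 to 1.04 ± 0.35, Fbn2 from 2.25 to 1.38 ± 0.53 and Adamts16 from 2.15 to 1.45 ± 0.56. Kcna5 went to 1.19 ± 0.43 and Angptl1 to 1.51 ± 0.52. Moxd1 went from 2.44 to 2.04 ± 0.59. Pde11a (2.28 ± 0.72) and Sbspon (1.12 ± 0.29) moved least of the 9. In VIT, collagen itself differed by 4.15, while in CC021, CC059 and LAT the collagen level was lower below and 9, 8 and 8 members were higher there.

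The same comparison was then made in mice that the choice had not used, the 62 mice of single-class strains, with counts summed per strain so that the strain was the replicate (16 strains above, 6 below). No member passed (edgeR quasi-likelihood test, Benjamini-Hochberg over 20134 genes, percent called 0). Of the 9, 7 were lower below and 2 higher. No gene of the whole table passed either, although 3124 had an unadjusted p under 0.05. DESeq2 called 226 genes and limma-voom 0, with no member among them.

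Fbn2 in these strains stood at 1.54 to 470.1 CPM (median 11.8) in the 48 mice above and 0.124 to 139 CPM (median 7.28) in the 14 mice below. The difference was -2.39 ± 0.97 (adjusted p = 0.266), opposite in sign to the 13 strains. Lrrc17 stood at 0.658 to 759 CPM (median 53.05) above and 4.48 to 257 CPM (median 18.7) below, a difference of -1.31 ± 0.69 (adjusted p = 0.354). Moxd1 stood at 0.239 to 339 CPM (median 9.01) above and 0.602 to 89.1 CPM (median 2.10) below, a difference of -2.09 ± 0.87 (adjusted p = 0.274). Of the 9 members, only Fbn2 (p = 0.0223) and Moxd1 (p = 0.0248) had an unadjusted p under 0.05 in this edgeR fit, both lower below.

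Adamts16 differed by -1.28 ± 0.86, from 0 to 132 CPM (median 3.75) above and 0.120 to 15.2 CPM (median 1.45) below. Pde11a differed by -0.94 ± 0.86 with medians of 0.651 above and 0.234 CPM below. Sbspon differed by -0.67 ± 0.63 with medians of 0.330 and 0.351 CPM, so that its fitted sign and its medians over mice disagree. The same holds for Cacna1g, fitted at -1.22 ± 0.60 from strain sums (adjusted p = 0.326), with medians over mice of 12.2 CPM above and 20.6 CPM below. Kcna5 was the only member higher below by both fit and medians, 0.55 ± 0.44 (adjusted p = 0.537), with 0.998 and 1.05 CPM. Angptl1 was near 0, at 0.05 ± 0.74, and moved to -1.67 without libraries with over 1% of another tissue. One mouse, CIS-G4, which has such a library, held 66.7% of the summed CPM of Angptl1 below.

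By strain, most of the members' lowest means among the 6 strains below were those of FUF. FUF, with 1 mouse, was lowest for Fbn2 (mean log2 CPM -2.42), Adamts16 (-1.20), Angptl1 (-1.84), Sbspon (-2.996) and Pde11a (-3.40), yet highest for Lrrc17 (7.14). CIS was highest of the 6 for Fbn2 (4.95), Moxd1 (2.96) and Sbspon (-0.48). The collagen level of these 6 strains was 11.71 ± 1.15 (SD, n = 6), beside 12.29 ± 0.92 (SD, n = 16) in the 16 strains above. The median member difference was -1.22, beside -1.05 without FUF and -1.23 without the 5 libraries nearer to another strain. It was smaller in size with the mouse as the replicate (-0.44), without the 17 libraries of the highest numbers in their titles (-0.80) and by limma on strain means (-0.82). Libraries with over 1% of another tissue were 5 of 17 below and 6 of 69 above in these strains. The fitted medians of the lists were 3.53 for pancreatic acinar, 1.70 for hepatocyte, 1.52 for adipocyte and 0.83 for skeletal muscle markers. They were -4.39 for reproductive tract, -3.97 for intestine, -2.36 for kidney and adrenal and -0.78 for smooth muscle and pericyte markers. No gene of these lists passed. Without libraries with over 1% of another tissue the median member difference was -1.38, and Angptl1 moved most.

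**Figure D3:**
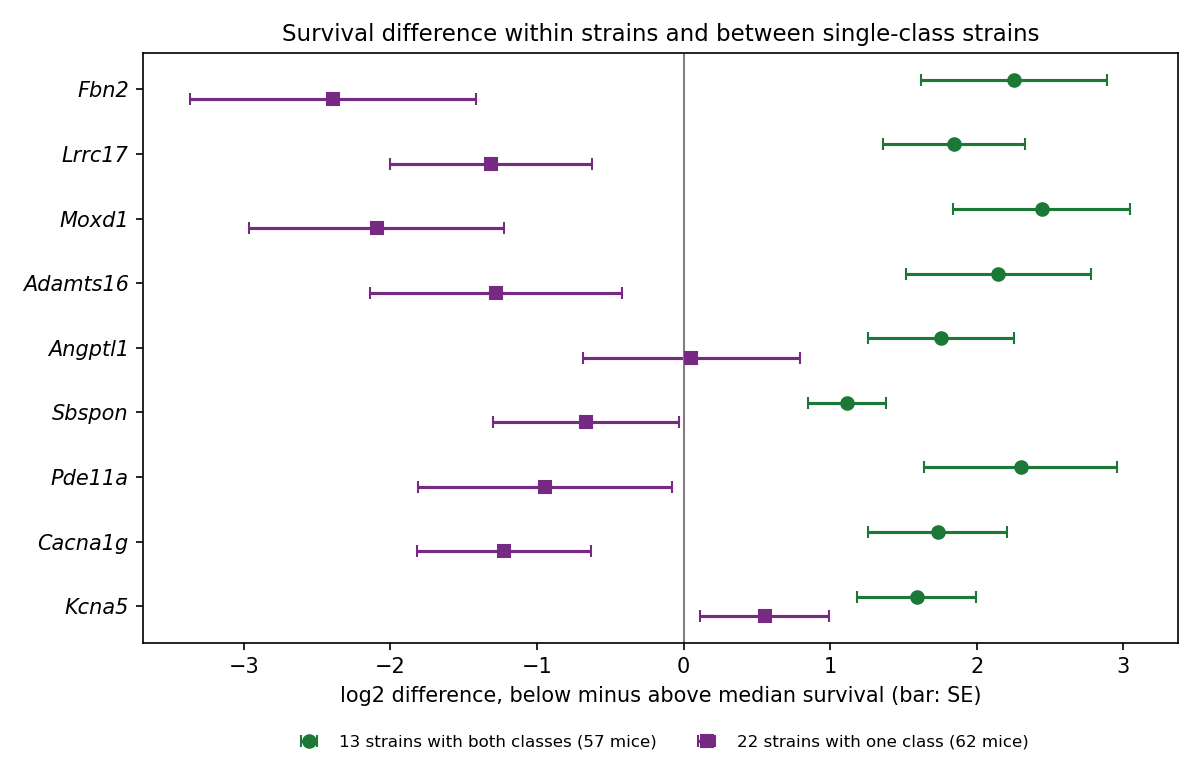
Difference in log2 expression, below minus above median survival, with its SE, in the 13 strains from which the genes were chosen (green circles) and between the 22 single-class strains (purple squares). All 9 green points lie right of 0, whereas 7 purple points lie left of it and 2, Angptl1 and Kcna5, right.

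The 2 sets of values are given side by side, with no test of their difference, because the first set fixed the choice of the genes. In the first set class varies within a strain, and in the second a class is a property of whole strains, so that class and strain cannot be told apart there. Ddx3y stood at or under 1 log2 CPM in 10 of 48 mice above and 7 of 14 below in the single-class strains.

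A test of whether the survival difference itself varied with strain used the 7 strains that had 2 or more mice per class (37 mice). These mice belong to the 13 strains, and to the contrast, from which the genes were chosen. The outcome for the members was thus shaped by the choice, and no conclusion is drawn from it. No member passed (edgeR, percent called 0 over 16593 genes, 1397 with an unadjusted p under 0.05, and none by limma-voom). The lowest adjusted p was 0.465 for Adamts16, whose differences in these strains ran from -1.90 in CC044 to 4.77 in MEE. Without libraries with over 1% of another tissue (27 mice) 2 genes passed, neither a member, and without those nearer to another strain none did. That a member did not pass does not show that its difference was alike in these strains.

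Strains themselves differed. Over 25 strains with at least 3 mice each, 7 of the 9 members passed the test of strain terms (edgeR, percent called 68.9), a share of the members near that of all genes. This fit held mice of both classes and no term for survival class. The class difference the genes were chosen for is therefore part of the strain means and of the spread within strains. Sbspon had the lowest p (adjusted p = 3.93e-05), from -2.58 ± 1.22 log2 CPM (SD, n = 3) in CC021 and -2.52 ± 0.64 (n = 4) in CC040 to 0.58 ± 2.82 (n = 4) in Rogan. Moxd1 ran from -1.67 ± 1.32 (n = 4) in CC040 to 6.12 ± 0.69 (n = 4) in GIT, above KAV at 4.81 ± 1.01 (n = 3). Angptl1 ran from -0.996 ± 0.79 (n = 6) in CC053 to 3.70 ± 1.74 (n = 3) in KAV, and Pde11a from -1.77 ± 1.11 (n = 5) in LAT to 2.98 ± 2.19 (n = 3) in KAV.

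Lrrc17 ran from 2.23 ± 0.93 (n = 6) in CC053 to 7.21 ± 1.53 (n = 4) in Rogan, where VUX, at 7.07 ± 3.04 (n = 4), did not differ from it beyond the spread. Cacna1g ran from 1.10 ± 1.10 (n = 4) in CC040 to 5.83 ± 1.26 (n = 3) in CC046, next to Rogan at 5.69 ± 1.68 (n = 4). Adamts16 ran from -1.84 ± 0.45 (n = 4) in CC040 to 4.22 ± 2.70 (n = 4) in Rogan, next to GIT at 4.19 ± 1.97 (n = 4). Fbn2 and Kcna5 did not pass (adjusted p = 0.233 and 0.871). The lowest Fbn2 mean was that of CC040, at -0.48 ± 1.54 (n = 4), and the next, of CC035, stood at 2.86 ± 1.91 (n = 3). CC040 was singled out after seeing the means, and its distance was not tested. CC040 was thus among the 2 lowest strains for Fbn2, Moxd1, Adamts16, Sbspon and Cacna1g, and Rogan, where all 4 mice were above the median, among the 2 highest for Fbn2, Lrrc17, Adamts16, Sbspon, Cacna1g and Kcna5. Limma-voom called 4 members, without Angptl1, Sbspon and Pde11a, and the fit without the 17 libraries of the highest title numbers also 4, without Adamts16, Sbspon and Cacna1g.

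The relation to collagen was tested over all 119 mice in a fit with strain, class and collagen level. This took out the survival difference shared by the strains, while departures from it in single strains stayed in the fit. Of the 9 members, 6 passed and all 6 rose with collagen. Over all 17176 genes 37% passed, 17% rising and 20% falling. Slopes are log2 change per log2 unit of collagen level. Lrrc17 had a slope of 0.98 ± 0.11 (edgeR, adjusted p = 5.67e-11) and Cacna1g of 0.98 ± 0.12 (adjusted p = 3.87e-10), so both changed about in proportion to collagen. Moxd1 had a slope of 0.89 ± 0.16 (adjusted p = 8.51e-06), Adamts16 of 0.79 ± 0.18 (adjusted p = 0.000230), Fbn2 of 0.75 ± 0.15 (adjusted p = 5.34e-05) and Angptl1 of 0.50 ± 0.17 (adjusted p = 0.0156).

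The other 3 members did not pass: Kcna5 at 0.29 ± 0.12 (adjusted p = 0.0527), Pde11a at 0.40 ± 0.23 (adjusted p = 0.161) and Sbspon at 0.16 ± 0.12 (adjusted p = 0.287). Kcna5 passed under 6 alternatives, with adjusted p of 0.00875 without libraries with over 1% of another tissue and 0.0418 without those nearer to another strain. Angptl1 no longer passed without libraries with another tissue (0.34 ± 0.15, adjusted p = 0.0574), without those 17 libraries (adjusted p = 0.0554) or in the 83 mice above the median alone (adjusted p = 0.111). In those 83 mice Lrrc17, Cacna1g, Moxd1, Adamts16 and Fbn2 passed, while Sbspon, Pde11a and Kcna5 were too low to be tested.

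Tumours of one mouse share strain, survival class and host, and 83 tumours came from 35 mice with several. In a fit with mouse and collagen level, the same 6 members passed, all rising, beside 26.9% of 16778 genes (14.1% rising). Cacna1g had a slope of 0.96 ± 0.16 (edgeR, adjusted p = 7.66e-06), Adamts16 of 0.93 ± 0.21, Moxd1 of 0.87 ± 0.18, Angptl1 of 0.81 ± 0.26, Lrrc17 of 0.71 ± 0.11 and Fbn2 of 0.62 ± 0.21. Sbspon had a slope of -0.15 ± 0.19 and Pde11a of 0.21 ± 0.23. By limma-voom Pde11a passed as well (0.49, adjusted p = 0.0335). Without libraries nearer to another strain 4 members passed: Fbn2 fell to 0.43 ± 0.21 (adjusted p = 0.153) and Angptl1 to 0.61 ± 0.31 (adjusted p = 0.167). The same 2 did not pass without libraries with over 1% of another tissue (adjusted p = 0.206 and 0.136).

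Single mice show the size of these differences. The 3 tumours of BOON-H2, whose collagen levels were 13.92, 12.66 and 11.15, held 440.2, 178 and 37.1 CPM of Lrrc17, in the order of collagen. The same tumours held 154.5, 0.853 and 4.79 CPM of Cacna1g and 206, 28.002 and 122 CPM of Fbn2, where the tumour richest in collagen was highest and the other two were not in that order. Over the 35 mice, most of which had 2 tumours, the tumour with the most collagen was also the one with the most Lrrc17 in 23, Adamts16 or Angptl1 in 21 each, Sbspon or Kcna5 in 20 each, Cacna1g in 18, Fbn2 or Moxd1 in 17 each and Pde11a in 16. This count did not part the members that passed from those that did not. Tumours of one mouse could differ widely: the SD between tumours within mice was 1.71 log2 units for Angptl1, equal to the SD of 1.71 between mouse means, and 1.04 beside 2.03 for Lrrc17.

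**Figure D4:**
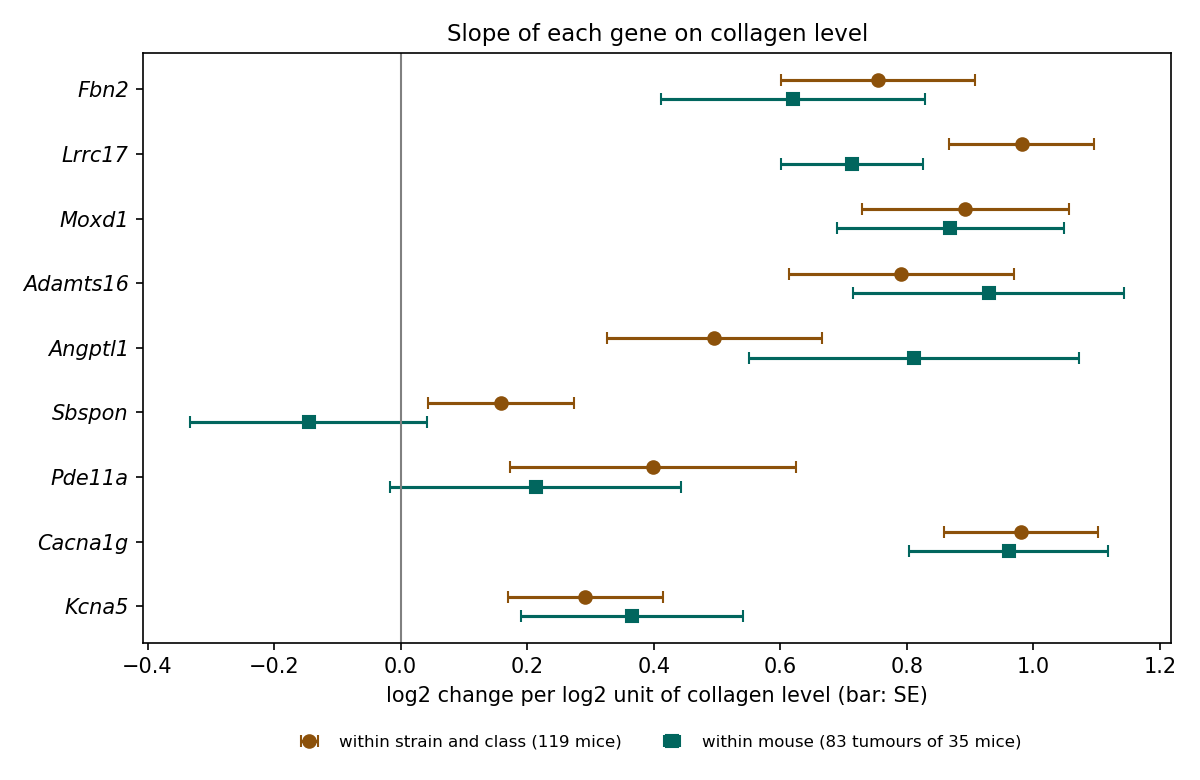
Slope of each gene on the collagen level (log2 change per log2 unit, with SE). Brown circles show the fit with strain and class over 119 mice, and green squares that within mouse over 83 tumours of 35 mice. Lrrc17, Moxd1, Adamts16 and Cacna1g lie between 0.71 and 0.98 in both fits, and Sbspon lies on both sides of 0.

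After the mean of strain and class was subtracted, correlations with collagen were computed for the 9 members over the mice that shared their strain and class with another mouse, all but 11 of the 119 (permutation within strain and class, two-sided). The highest were Lrrc17 (Pearson r = 0.71, Spearman rho = 0.70, permutation p of 1e-05 for each, the smallest the permutations can give) and Cacna1g (r = 0.68, rho = 0.67, permutation p of 1e-05 for each). Moxd1 had r = 0.59 and rho = 0.58 (permutation p of 1e-05 for each), Adamts16 r = 0.45 and rho = 0.38 (permutation p = 0.00015 and 0.00104) and Fbn2 r = 0.41 and rho = 0.43 (permutation p = 0.00013 and 8e-05). Angptl1 had r = 0.35 and rho = 0.32 (permutation p = 0.00256 and 0.00761). Pde11a had r = 0.27 and rho = 0.31 (permutation p = 0.0166 and 0.00774) and Kcna5 r = 0.25 and rho = 0.26 (permutation p = 0.0392 and 0.0268), both under 0.05 here although neither passed the fit over all genes. Sbspon had r = 0.19 and rho = 0.08 (permutation p = 0.0753 and 0.473), and r = 0.22 and rho = 0.12 without libraries nearer to another strain (permutation p = 0.0457 and 0.285). These p-values are not adjusted for the 9 members. Without the 2 mice farthest from the median collagen level, r was 0.67 for Lrrc17, 0.64 for Cacna1g, 0.53 for Moxd1, 0.44 for Fbn2, 0.39 for Adamts16, 0.28 for Angptl1, 0.26 for Kcna5, 0.24 for Pde11a and 0.13 for Sbspon. Split by class, r over the 80 mice above and the 28 below was 0.07 and 0.61 for Kcna5. For Pde11a it was 0.17 and 0.51, and for Sbspon 0.05 and 0.50. Lrrc17 (0.73 and 0.66) and Moxd1 (0.61 and 0.56) had the higher r above, and the other members below. The difference between the classes was not tested.

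Among themselves the members were correlated on the same scale, with a positive r in all 36 pairs, a median of 0.26 and a range from 0.09 (Cacna1g with Kcna5) to 0.62 (Lrrc17 with Cacna1g). The pairs over 0.4 were 6, and 5 of them were among Fbn2, Lrrc17, Moxd1, Cacna1g and Adamts16, with Moxd1 and Pde11a as the sixth. These correlations are descriptions over mice that share libraries and depth, with no test. On the same terms, Lrrc17 followed the 15 fibroblast markers (r = 0.73) and Cacna1g the microfibril list (r = 0.68). Kcna5 followed the 12 endothelial markers (r = 0.64) and the smooth muscle and pericyte markers (r = 0.53) more than collagen. Angptl1 was highest with the 12 skeletal muscle markers (r = 0.61), a tissue of the abdominal wall. Sbspon reached 0.29 in size with no list except hepatocytes, where r was -0.29. By these values the label of stromal genes fits Lrrc17, Cacna1g and Moxd1 best, while Sbspon had its highest r, 0.26, with the microfibril and the smooth muscle lists.

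**Figure D5:**
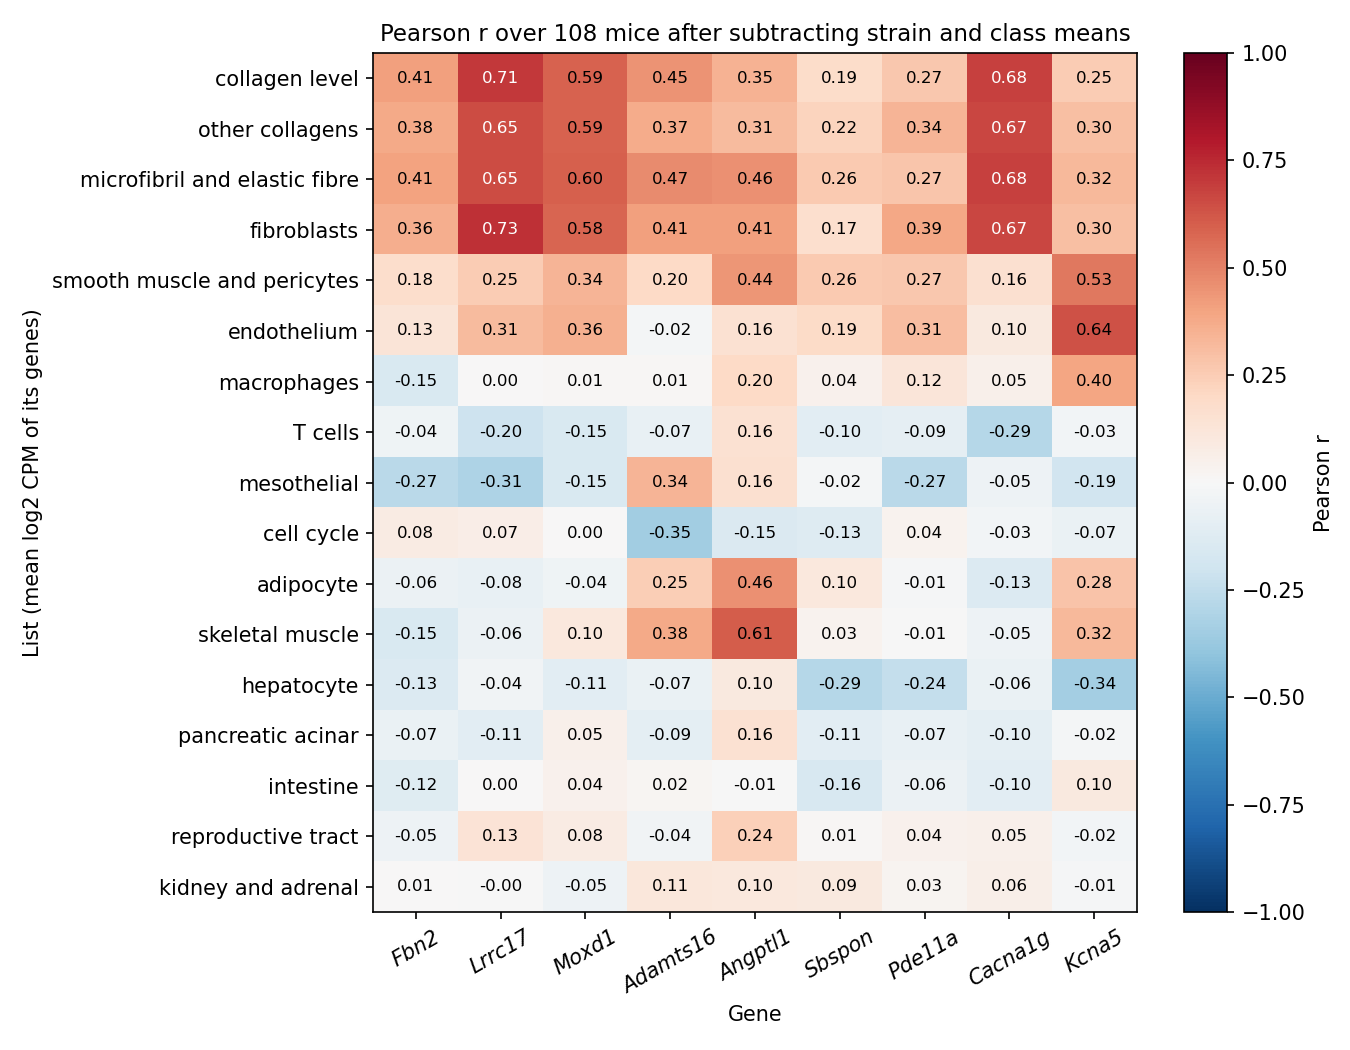
Pearson r over mice between each gene (columns) and the mean log2 CPM of each marker list (rows), after subtracting strain and class means. Lrrc17, Moxd1 and Cacna1g are deep red in the 4 matrix and fibroblast rows, Kcna5 in the endothelial row and Angptl1 in the skeletal muscle row.

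Angptl1 in single tumours and mice shows the last relation and its limits. In GIT-K1, tumour 2, with 5.13% of its counts from skeletal muscle markers, held 93.4 CPM of Angptl1 and tumour 1 held 0.499 CPM. The mouse with the most Angptl1 among the 22 below, LAX-F2, had 2.05% of such counts. In the 13 strains the 12 skeletal muscle markers summed to 8.14 to 26287 CPM above and 9.13 to 19505 CPM below, and were higher below in 8 strains. Without libraries with over 1% of another tissue the within-strain difference of Angptl1 was 1.57, beside 1.76 with them.

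Relatives of the members were examined in the same collagen fit, over lists that held no member. Of 17 microfibril and elastic fibre genes, relatives and partners of Fbn2, all 17 rose. They include Fbn1, the main adult fibrillin (0.67 ± 0.05), and the crosslinking enzymes Loxl1 (0.79 ± 0.06) and Lox (0.79 ± 0.09). Of 18 other ADAMTS proteases 13 rose and 1, Adamts13, fell, with Adamts3, a procollagen peptidase, at 0.84 ± 0.10 and Adamts12 at 0.74 ± 0.08. Of 15 secreted proteins with thrombospondin repeats and their relatives 12 rose, led by Ccn4 (0.78 ± 0.08) and Thbs2 (0.86 ± 0.09). Of 15 other collagens 14 rose and of 15 fibroblast markers 13, with Postn, the matrix protein periostin, at 1.15 ± 0.10 and Cthrc1 at 1.19 ± 0.10. The medians of these lists, from 0.38 for the ADAMTS list to 0.68 for other collagens, stand beside a median of -0.02 over all genes.

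The families of the other members had counts to be read against the 17% of all genes that rose and the 20% that fell. Of 11 angiopoietins, angiopoietin-like proteins and their receptors 4 rose, with Angptl2 at 0.61 ± 0.08. Of 17 other calcium channel subunits 4 rose, with Cacna2d1 (0.65 ± 0.09) and the L-type pore Cacna1c (0.61 ± 0.09), and 3 fell, with Cacna1e, another pore subunit, at -0.50 ± 0.11. Of 17 phosphodiesterases tested 5 rose and 3 fell, with Pde10a at 0.42 ± 0.08 and Pde4c at -0.66 ± 0.09. Of 8 Kv1 subunits tested 2 rose and 2 fell, the latter Kcna2 (-0.46 ± 0.11) and Kcna3 (-0.35 ± 0.10), a channel of T cells. The T cell markers fell in 8 of 11, with Zap70 at -0.48 ± 0.11, and of 12 endothelial markers 4 rose, with Erg at 0.26 ± 0.08. The median slopes of these 4 families lay between -0.10 and 0.20, and that of the members at 0.75. Pam, the copper monooxygenase tested beside Moxd1, rose by 0.21 ± 0.05.

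The genes most like each member were found among 14621 genes with a mean of at least 1 CPM, by Pearson r of log2 CPM over the same mice, as a description. For Lrrc17 these were Matn2 (r = 0.82), Lrrc15 (0.81), a marker of activated fibroblasts, and Prss35 (0.77). For Cacna1g they were Col5a2 (0.73), Tgfb2 (0.70) and Map1a (0.69), and for Moxd1 Col5a2 (0.62), Nell2 (0.61) and Fat4 (0.61). Fbn2 was closest to Tro (0.67), Fat4 (0.65) and Nell2 (0.63), and Adamts16 to Bmper (0.66), Ankrd1 (0.64) and Hs6st2 (0.63). Angptl1 was closest to Myo18b (0.69), Mfap4 (0.66) and Hmcn2 (0.65). Kcna5 was closest to C1qtnf9 (0.77), Grrp1 (0.70) and Meox2 (0.69), and Pde11a to Cfap100 (0.59), Castor2 (0.57) and Fat4 (0.56). Sbspon had no close partner, with Nipal2 first at 0.46. By mean r over the 9 members Col5a2 (0.47), a fibrillar collagen chain, came first, then Fat4 (0.46), Zfp354c (0.44), Loxl1 (0.44) and Itga11 (0.44), a collagen receptor of fibroblasts. Col1a1 itself stood at rank 6 among the genes most like Cacna1g, at rank 9 for Moxd1, 15 for Lrrc17 and 1782 for Sbspon.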

How the data were processed

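RNA was taken from whole tumours and sequenced from a strand-specific mRNA library, per the labels' protocols. The authors deposited estimated counts per Ensembl gene, made with kallisto 0.46.1 on GRCm38, with DESeq and DESeq2 also named, per the submitters' processing notes. These estimated counts need not be whole. They were summed over the tumours of a mouse or strain, except in the within-mouse fit, and rounded only for DESeq2. A second deposited table of 22049 genes had all 3682183 of its values equal to the first and was not used. Of the columns, 165 matched 1 sample by name and 2, of mouse GIT-K1, matched the mouse only.

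Depth was 11138491 to 35399287 estimated counts per library, so 3 counts made 0.269 CPM in the shallowest. Counts were scaled by TMM and filtered with filterByExpr. They were tested with edgeR 4.0.16 (quasi-likelihood, R 4.3.3), with Benjamini-Hochberg adjustment over all genes fitted and a threshold of 0.05. Levels are CPM, or log2 CPM with a prior count of 2. The mouse was the replicate, or the strain for single-class strains, or the tumour within a mouse. Nothing but the labels says that mice are independent, so p-values measure the spread between these samples.

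The members and gene lists were chosen with earlier results of these data known. All 9 members are named, and of each list up to 4 passing genes of lowest p. The genes most like a member are the first 3 by Pearson r. Alternatives were DESeq2 1.42.0, limma 3.58.1 (voom), DESeq2 size factors, no filter, a prior count of 0.5, other collagens, 1 tumour per mouse, and leaving out libraries or strains. Leaving out libraries nearer to another strain, and the Ddx3y covariate, were added after seeing the data. The fits were tested on simulated data.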

Additional observations from a re-analysis of the deposited data

Results flagged for a closer look

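Within groups of 4 to 10 mice of 1 strain and class, a mouse stood apart from the rest by Dixon's criterion in 3 of 63 combinations of group and gene, and chance flags about 1 in 20 such groups. Angptl1 in LAX-G3 was high, at 1.29 log2 CPM, with the next of the 4 LAX mice above median survival at 0.03. Sbspon in LAX-E2 was low, at -2.78 log2 CPM, with the next of the same 4 mice at -0.44. That library had 23.96% of its counts from hepatocyte markers, and the part of this in the low value was not tested. Pde11a in BOON-I4 was low, at -2.14 log2 CPM, with the next of 4 Boon mice at -0.48.

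In CC040 every mouse above median survival exceeded the mouse below for 3 members, while in other strains every mouse below exceeded every mouse above. The CC040 difference was -2.79 for Fbn2, against 7 strains of the opposite order, -1.92 for Moxd1, against 8, and -0.79 for Sbspon, against 7. These differences between strains were not tested, since CC040 has 1 mouse below the median. Against 3 mice above, a single mouse below is often the lowest by order alone. No share of all genes stands beside the count of 3 members.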

How the results depend on the processing

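The single-class comparison called no member under any alternative run. Its count of genes called, 0 by edgeR, was 41 with no filter, 11 without libraries over 1% of another tissue, 6 without the 17 libraries of the highest numbers in their titles, 5 with 1 tumour per mouse, 226 by DESeq2 and 771 with the mouse as the replicate. It was 0 to 213 when 1 strain was left out, with 213 without TOFU. Angptl1, at 0.05, was -0.32 by limma-voom, -1.67 without libraries of another tissue, -0.71 by limma on strain means, and -0.78 to 0.36 when 1 strain was left out. The within-strain comparison called 61 genes by DESeq2, and the interaction 2 genes without libraries of another tissue. The within-strain collagen slope called 6360 genes, and 3240 in mice above median survival alone. The within-mouse slope called 4508, and 2748 without libraries of another tissue, where Sbspon was at 0.071 rather than -0.15. Strain differences called 7 members, 4 by limma-voom and 4 without those 17 libraries. The cause of these shifts was not tested. The replicate numbers follow accession order and pair no samples, so no pairing was taken from them. Strain and mouse, which the labels give, served as blocks in the fits within strain and within mouse. Sbspon, Pde11a and Kcna5 were limited by their low levels, with at most 3 counts in 17 to 22 of the 119 mice.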
